A study of Drosophila melanogaster with 2 samples.

Results

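The peaks described here are the sites on the X chromosome that were called reproducibly in chromatin immunoprecipitation followed by sequencing (ChIP-seq) of the proneural factor Atonal in Drosophila melanogaster embryos. They were chosen as every peak of the conservative list, which sets the replicates against each other by the irreproducible discovery rate (IDR), that lies on the X chromosome of the dm6 assembly. There were 487 such peaks of 3009 in all. The autosomal arms 2L, 2R, 3L, 3R and 4 held 2518, and 4 peaks on unplaced X sequences were not members. The chromatin came from whole embryos aged 0 to 18 h of a transgenic line that makes Atonal fused to enhanced GFP, with fragments of 200 to 800 bp after sonication, and an antibody to GFP was used for the precipitation. There was 1 group with 2 biological replicates and no second condition, and no control was analysed here. The labels do not record the sex of the embryos or how many were pooled, and a whole embryo mixes every cell type present. Reads were not counted in the files, which leaves the depth of each library unknown. Peaks, genes and starts are the units of every test below, so no p-value here measures how far the replicates differ. Wilson intervals (95%) cover the counting of these units only.

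Atonal starts the development of chordotonal sense organs and of the founder photoreceptors of the eye. It belongs to the basic helix-loop-helix (bHLH) family, whose dimers bind E-boxes, written CANNTG. Male flies carry a single X chromosome, and the male-specific lethal complex, guided by the roX RNAs, raises its transcription in males. Many promoters of widely expressed fly genes hold the DNA replication-related element (DRE), TATCGATA, which is bound by the factor DREF. Its core ATCGAT is a palindrome and lies within every TATCGATA, so the shares of both words overlap.

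The sequences below carry the main features of the X peaks and are from the RefSeq dm6 assembly. The first is the whole of the strongest peak, in an intron of org-1 (chrX:8452229-8452506, plus strand), with the word TTAAAGTG in capitals. It is shown because its repeated unit sets it apart from the promoter peaks. The next 5 are 81-base windows at strong X peaks near gene starts, written on the strand of the gene, with the DRE core in capitals. They lie at CG4119 (chrX:5665966-5666046, plus strand), Nrg (chrX:8517203-8517283, plus), su(w[a]) (chrX:1033205-1033285, plus), l(1)G0289 (chrX:10366277-10366357, minus) and Zdhhc8 (chrX:9356260-9356340, minus). Top1 (chrX:15319389-15319469, plus) is a strong promoter peak without the DRE core and holds GGTCACAC, the core of the promoter element known as motif 1, in capitals. The last windows are from strong peaks away from any start, nearest to CG15468 (chrX:4956091-4956171, minus) and CG5273 (chrX:758923-759003, plus), with the word CGTGACACG or its reverse complement in capitals.
org-1: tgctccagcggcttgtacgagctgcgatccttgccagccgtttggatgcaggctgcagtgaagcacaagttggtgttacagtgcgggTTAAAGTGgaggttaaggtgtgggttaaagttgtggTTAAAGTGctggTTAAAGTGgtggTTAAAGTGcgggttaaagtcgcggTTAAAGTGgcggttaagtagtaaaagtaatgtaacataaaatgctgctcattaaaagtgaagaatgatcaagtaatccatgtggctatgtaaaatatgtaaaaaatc
CG4119: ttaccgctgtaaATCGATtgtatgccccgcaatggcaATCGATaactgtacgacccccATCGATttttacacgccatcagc
Nrg: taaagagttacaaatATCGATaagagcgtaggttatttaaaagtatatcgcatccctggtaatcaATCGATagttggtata
su(w[a]): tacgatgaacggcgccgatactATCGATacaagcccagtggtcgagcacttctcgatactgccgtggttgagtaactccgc
l(1)G0289: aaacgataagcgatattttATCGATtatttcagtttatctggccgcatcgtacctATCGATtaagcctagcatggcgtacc
Zdhhc8: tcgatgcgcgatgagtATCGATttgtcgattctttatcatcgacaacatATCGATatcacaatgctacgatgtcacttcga
Top1: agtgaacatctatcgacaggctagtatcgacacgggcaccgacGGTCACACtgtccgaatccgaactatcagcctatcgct
CG15468: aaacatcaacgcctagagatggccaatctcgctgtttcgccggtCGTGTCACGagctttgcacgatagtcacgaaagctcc
CG5273: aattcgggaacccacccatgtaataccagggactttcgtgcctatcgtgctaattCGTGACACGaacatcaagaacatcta

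The strongest X peaks lay at the starts of coding genes, apart from the peak in org-1, which is the strongest of all. Of the 20 with the highest signal, 19 had a summit within 130 bp of a protein-coding start, 15 were intergenic and 6 also lay within 500 bp of the start of another coding gene. Of all 487 X peaks, 90.3% lay within 500 bp of a start and 57.5% were intergenic. All 20 were also called in each replicate on its own, against 52.2% of all X peaks and 83.0% of X peaks in the strongest 50%. Within 50 bp of the summit, 15 of the 20 held ATCGAT and 9 held at least 2 copies, while 5 held an E-box. Over all X peaks, 52.8% held ATCGAT, 101 of them at least 2 copies, and 35.9% held an E-box. In the strongest of 4 equal sets by signal, ATCGAT was at 76.2% and an E-box at 24.6% of X summits. The signal of a peak is the authors' own value, and its scale is not stated. Signals of replicates 1 and 2 come from separate lists of unknown scale and depth, so they are set side by side without reading a difference between the replicates from them.

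The org-1 peak had a signal of 954.9, the highest of the whole list, with 480.1 in the ranked list of replicate 1 and 469.0 in that of replicate 2. Its summit lies in an intron of org-1, a T-box transcription factor gene, 2503 bp downstream of the nearest annotated start. The peak printed above held 5 copies of TTAAAGTG, against none in the 278 bp on each side. On the whole X chromosome there were 1456 copies, or 6.18 per 100 kb, counting both strands. In all, 12 X peaks held the word anywhere in the interval, and no other had more than 1 copy. No DRE core and no E-box lay within 50 bp of the org-1 summit.

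Snx27, a sorting nexin gene, followed with 474.6 in the combined list, 256.5 in replicate 1 and 219.1 in replicate 2. The peak at CG2924 had 444.8, with 210.3 in replicate 1 and 228.8 in replicate 2. At shi, which encodes dynamin, the signal was 345.8, with 165.4 and 171.3 in replicates 1 and 2. At mnb, the gene of a DYRK-family kinase, the signal was 340.8, with 203.7 in replicate 1 and 122.6 in replicate 2. Nrg, which encodes the neural cell adhesion molecule Neuroglian, had 333.0, with 196.8 in replicate 1 and 137.7 in replicate 2. At Nipsnap it was 325.9, with 134.7 in replicate 1 and 187.5 in replicate 2. In each replicate these 6 peaks lay above the third quartile of the X peaks, which was 76.1 in replicate 1 and 67.8 in replicate 2.

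The rest of the 20 ranged from 339.1 at CG4119 to 281.7 at Zdhhc8, a palmitoyltransferase gene. The promoter of CG4119, shared with Sirt4, held 3 copies of the DRE core. Between them in signal stood CkIalpha, a casein kinase gene (336.1), shtd, which encodes a subunit of the anaphase-promoting complex (320.5), ewg, a transcription factor gene (296.5), and Top1, the topoisomerase I gene (295.1). ND-B14.5A (293.9) and mRpL30 (289.6) encode a subunit of respiratory complex I and a mitochondrial ribosomal protein. Socs16D (292.9), the RNA helicase gene kz (291.0), the splicing regulator gene su(w[a]) (287.5), l(1)G0289 (287.3) and the GTPase regulator gene RhoGAPp190 (283.6) completed the set. The summit at kz is shared with fs(1)K10, and that at mRpL30 with HLH4C, a bHLH gene. CkIalpha, shtd, Top1 and kz were the promoter peaks among the 20 with no DRE core within 50 bp.

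**Figure D1:**
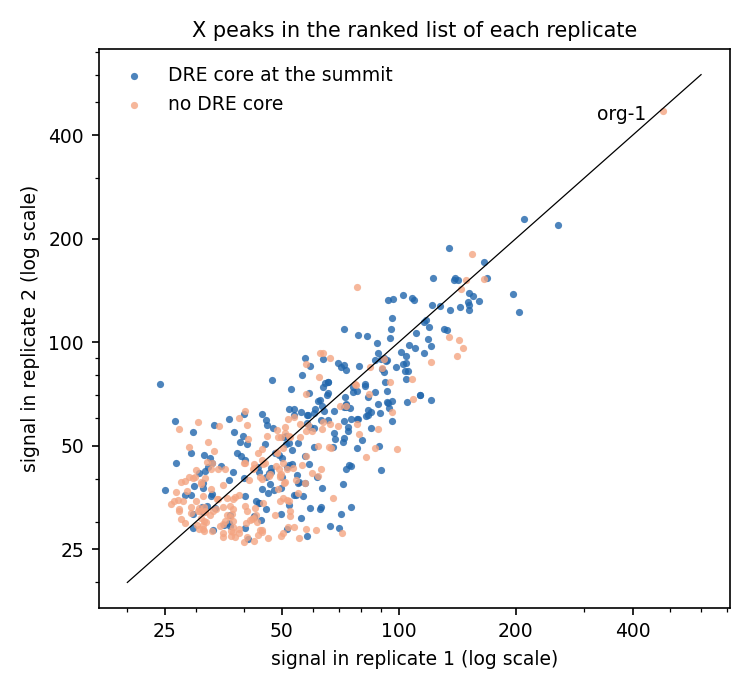
Signal of each X peak in the ranked list of replicate 1 (horizontal, log scale) and of replicate 2 (vertical, log scale), with the line of equal values. Points are peaks with (blue) and without (orange) ATCGAT within 50 bp of the summit. The lists have unknown scales, so the side of the line is not read. Of these X peaks, org-1 has the highest signal in each replicate, at 480.1 and 469.0.

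Across all X peaks the signal ran from 2.08 to 954.9 with a median of 95.7 and quartiles of 72.1 and 140.0. A ranked peak of replicate 1 lay at 471 of the 487 summits, with signals from 24.3 to 480.1 and a median of 52.9. For replicate 2 there were 469, from 26.3 to 469.0 with a median of 47.6. The plot of both signals shows the peaks that had one in each. The list of replicate 1 held 422 X peaks and that of replicate 2 held 309. Of the 487 X peaks, 13 had a signal under 20, and 12 of these overlapped another X peak of the same list. With overlapping peaks merged, the 487 peaks formed 471 intervals that covered 140.4 kb.

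The number of X peaks was close to what the chromosome's size would give. The X chromosome held 16.2% of the peaks on the arms, against 17.6% of the arms' length and 15.7% of their protein-coding genes. There were 20.7 X peaks per Mb, at the low end of the 20.6 to 26.9 on the 4 main autosomal arms. Of the 10, 100 and 500 strongest peaks of the whole list, 2, 18 and 83 were on the X chromosome. Over all arms, 1.89% of ranked peaks passed into the conservative list. The share was 1.72% for ranked peaks on the X chromosome (487 of 28293, 95% Wilson interval 1.58 to 1.88%) and 1.92% for those on the autosomal arms (2518 of 131106). The log2 odds ratio of -0.16 (95% interval -0.30 to -0.02) passed the threshold of 0.05 (two-sided Fisher's exact test, p = 0.0250). It did not hold within either replicate. In the list of replicate 1 alone 2.11% of X peaks and 2.12% of autosomal peaks passed (Fisher's exact p = 0.936), and in that of replicate 2 alone 1.33% of X peaks and 1.21% of autosomal peaks (exact p = 0.134). Among ranked peaks within 500 bp of a start, 10.8% passed on the X chromosome and 10.1% on the autosomal arms (exact p = 0.215). Among those further from a start, 0.194% passed on the X chromosome (47 of 24201) and 0.332% on the autosomal arms (365 of 109792), a log2 odds ratio of -0.78 (exact p = 0.000248).

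X peaks sat at gene starts more often than autosomal ones. Of the X summits, 90.3% had an annotated transcription start within 500 bp (440 of 487, 87.4 to 92.7%), against 85.5% of autosomal summits (2153 of 2518). This was a log2 odds ratio of 0.67 (two-sided Fisher's exact test, Benjamini-Hochberg adjusted p = 0.00655 over 10 shares), and the 4 main autosomal arms ranged from 84.2 to 87.1%. For the 431 summits with a coding start within 500 bp, the median position was -31 bp, with quartiles of -63.5 and -6.5 bp, negative values being upstream. Among the strongest 50% of peaks the shares were 93.9% of X and 94.2% of autosomal summits, with no higher share on the X chromosome. With the list of replicate 1 alone they were 90.05% of X and 88.8% of autosomal summits (adjusted exact p = 0.637). Ranked X peaks that did not pass had 13.1% near a start (3652 of 27806, log2 odds ratio 5.95, adjusted exact p = 1.27e-315 over 5 measures). Ranked peaks can overlap each other or a passed peak. With such peaks merged or removed, the 28293 ranked X peaks became 21277 intervals. The tests of passed against not-passed peaks count each ranked peak separately and were not rerun on merged peaks. Their p-values can therefore be too small.

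X summits were more often intergenic and less often in coding and non-coding exons. On the X chromosome 57.5% were intergenic, against 45.7% on the autosomal arms (log2 odds ratio 0.69, two-sided Fisher's exact test, adjusted p = 1.76e-05 over the 10 shares). Coding exons held 6 X summits (1.23%) against 5.68% of autosomal summits (log2 odds ratio -2.27, adjusted exact p = 1.76e-05). That call was lost among the strongest 50% of peaks, where 0 of 277 X and 8 of 1226 autosomal summits were in coding exons (adjusted exact p = 0.566). Non-coding exons held 8 (1.64%) against 5.84% (log2 odds ratio -1.89, adjusted exact p = 9.08e-05). The X shares lay outside the range of the main autosomal arms in each case, which was 41.9 to 49.3% for intergenic summits, 5.14 to 6.29% for coding exons and 3.11 to 7.93% for non-coding exons. On chromosome 4, which has 11 peaks, 63.6% were intergenic, 0% in coding exons and 0% in non-coding exons. Shares outside these ranges were thus not seen on the X chromosome alone. The X and autosomal shares in 5′ UTRs (X 24.4%, autosomal 26.6%), introns (X 13.1%, autosomal 15.1%) and 3′ UTRs (X 2.05%, autosomal 1.15%) did not pass as different (adjusted exact p = 0.339, 0.328 and 0.154). Intergenic X peaks had a median signal of 116.9 and those in 5′ UTRs 81.3. Summits between divergent coding genes made up 25.9% of X and 25.9% of autosomal summits.

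Counted by gene, 526 of 2196 X-linked protein-coding genes had a summit within 500 bp of a start, or 24.0%, against 21.3% of autosomal genes (2508 of 11749). This was a log2 odds ratio of 0.21 (two-sided Fisher's exact test, adjusted p = 0.0106 over the 10 shares). Genes that share a promoter share a peak. Counting only the nearest coding gene of each summit, the shares were 20.2% of X-linked genes (443) and 18.6% of autosomal genes, and the difference did not pass (adjusted exact p = 0.113).

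Of the 12 words tested, the DRE core differed most between X and autosomal peaks. ATCGAT lay within 50 bp of 52.8% of X summits (257 of 487, 48.3 to 57.2%), against 34.2% of autosomal summits (860 of 2518). The log2 odds ratio was 1.11 (95% interval 0.82 to 1.39, two-sided Fisher's exact test, adjusted p = 2.63e-13 over 12 motifs). The 4 main autosomal arms ranged from 31.9 to 35.9%, below the X share. On chromosome 4, which has 11 peaks, it was 72.7% (95% Wilson interval 43.4 to 90.3%), so a share above that of the main arms was not seen on the X chromosome alone. In windows centred 500 bp to each side of the X summits the share was 6.16% and 3.90%, and in 101-bp windows along the X chromosome it was 3.45%. Of the X summits with the core, 156 held 1 copy and 101 held 2 or more, and the nearest copy was centred a median of 14 bp from the summit.

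**Figure D2:**
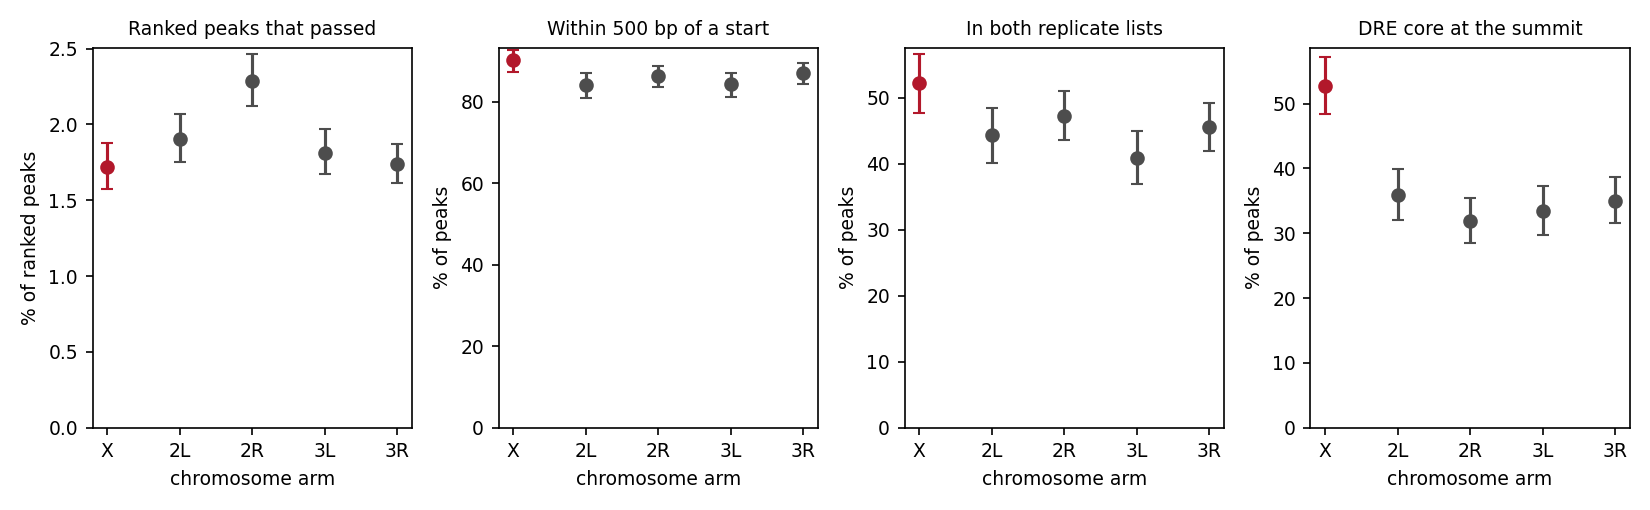
Share of ranked peaks that passed, and of conservative peaks within 500 bp of a start, called in both replicates on their own, and with ATCGAT within 50 bp of the summit, for the X chromosome (red) and the 4 main autosomal arms (grey). Points are percentages with 95% Wilson intervals; the DRE core share is 52.8% on the X chromosome and 31.9 to 35.9% on the main arms. Chromosome 4, with 11 peaks, is not plotted.

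**Figure D3:**
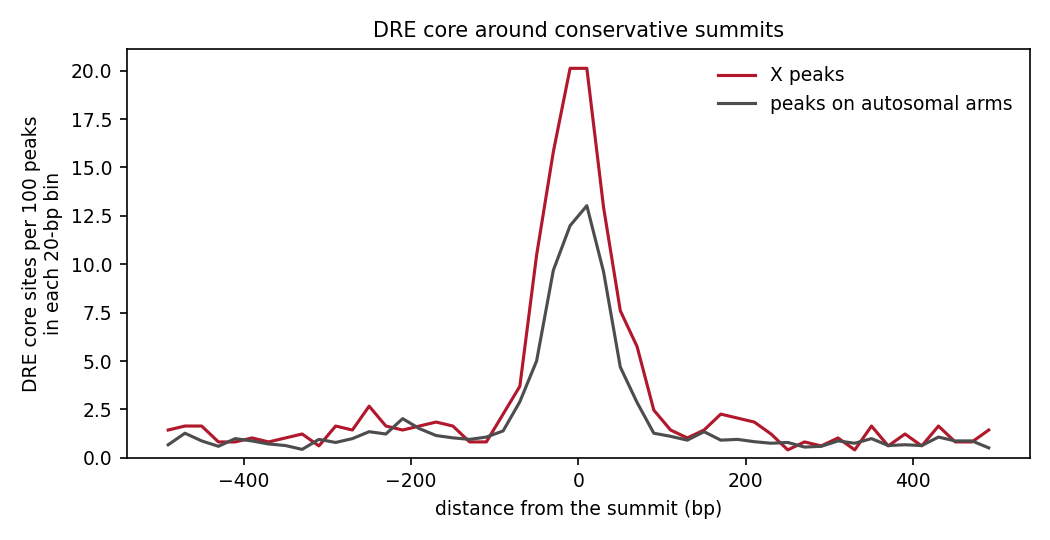
Sites of ATCGAT per 100 peaks in 20-bp bins (vertical) by distance from the summit in bp (horizontal), for X peaks (red) and peaks on the autosomal arms (grey). Both curves rise within 100 bp of the summit, and the X curve reaches 20.1 sites per 100 peaks in the bins next to it.

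The full element gave the same direction. TATCGATA was at 25.3% of X summits (123 peaks) and 16.7% of autosomal summits, a log2 odds ratio of 0.76 (two-sided Fisher's exact test, adjusted p = 8.98e-05 over the 12 motifs). It was at 36.4% of the 11 peaks on chromosome 4 and in 0.350% of windows along the X chromosome. Among the ranked X peaks that did not pass it was at 0.381% (log2 odds ratio 6.46, adjusted exact p = 9.48e-158 over 5 measures). Only 13.1% of those lay near a start, against 90.3% of the X peaks that passed. Near starts, TATCGATA was at 1.48% of the 3652 not-passed and 27.0% of the 440 passed X peaks, which was not tested. CAATCG was at 19.1% of X and 14.0% of autosomal summits (log2 odds ratio 0.53, adjusted exact p = 0.0210), and lost its call under 6 of the 11 alternatives. This word can overlap the DRE core, as in CAATCGAT at CG4119 and Nrg above, so its share is not separate from that of ATCGAT. How often they overlap was not counted. Among the strongest 50% of peaks, and in the subsets of the strongest 25% or of peaks called in both replicates, chosen after the data were seen, ATCGAT alone of the 12 passed. In the strongest 50% TATCGATA stood at 34.7% of X and 26.7% of autosomal summits (adjusted exact p = 0.0571).

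The X share of ATCGAT was higher near starts and, as a description with no test, in each of 4 sets by signal. Among peaks within 500 bp of a start the core was at 56.6% of X and 38.6% of autosomal summits (log2 odds ratio 1.06, two-sided Fisher's exact test, adjusted p = 4.80e-11). Away from starts it was at 17.0% of 47 X summits and 8.22% of 365 autosomal ones, a difference that was not tested. With peaks split into 4 equal sets by signal within each group, the X share was 21.5% in the weakest set, then 48.4%, 64.8% and 76.2%. The autosomal share was 13.2%, 17.5%, 42.0% and 64.0% in the same order. X peaks had the higher median signal (95.7 against 87.4), so sets of the same order are not at equal signal. X peaks with the core had a median signal of 123.3 (257 peaks), against 76.7 for those without it (230 peaks).

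Over all peaks, X summits showed no detectable excess of CANNTG, the E-box to which bHLH dimers bind, over autosomal summits. CANNTG was within 50 bp of 35.9% of X summits (175 peaks) and of 39.2% of autosomal summits (log2 odds ratio -0.20, 95% interval -0.49 to 0.09, two-sided Fisher's exact test, adjusted p = 0.404). It was in 41.9% and 40.2% of the flanking windows and in 39.9% of windows along the X chromosome. Among ranked X peaks that did not pass it was more frequent, at 43.2% (log2 odds ratio of passed to not passed -0.44, adjusted exact p = 0.00238 over 5 measures). In the same 4 sets by signal, from weakest to strongest, it was at 42.1%, 35.2%, 41.8% and 24.6% of X summits and 42.9%, 41.1%, 39.7% and 33.2% of autosomal summits, a description with no test. The core CAGCTG was at 7.39% of X and 9.65% of autosomal summits and CAACTG at 7.19% of X and 7.51% of autosomal summits (adjusted exact p = 0.375 and 0.928). In the flanking windows CAGCTG was at 6.16% and 5.75% for X peaks and at 5.72% and 4.57% for autosomal peaks. It was in 4.30% of windows along the X chromosome. Both summit shares of CAGCTG were above those of the windows, which was not tested. Near starts it was at 7.50% of X peaks and 7.26% of ranked X peaks that did not pass. CACGTG was at 1.44% of X and 1.79% of autosomal summits (adjusted exact p = 0.847). Other cores of CANNTG were not counted on their own, so a difference in one of them would not be seen here. Away from starts, CANNTG was at 46.8% of 47 X summits and 41.9% of 365 autosomal summits, and CAACTG at 19.1% of X and 8.49% of autosomal summits, the other direction from that over all peaks. These distal differences were not tested.

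The other words, among them words linked to dosage compensation and to early embryonic activation, did not differ past the threshold between X and autosomal summits. GAGAGAG, bound by the CLAMP and GAGA factors, was at 1.85% of X and 2.70% of autosomal summits (two-sided Fisher's exact test, adjusted p = 0.595 over 12 motifs). The flanking windows held it at 3.08% and 2.87% for X peaks and at 1.19% and 1.79% for autosomal peaks. GAGAGAG was thus lower at X summits than beside them and higher at autosomal summits than beside them, which was not tested. It was at 1.98% of ranked X peaks that did not pass (adjusted exact p = 1). CACACACA, a repeat common on the X chromosome, was at 1.64% of X and 2.26% of autosomal summits (adjusted exact p = 0.661) and in 4.31% and 5.54% of the windows beside the X summits. It was less frequent in passed than in not-passed X peaks, at 1.64% of passed and 3.82% of not-passed peaks (log2 odds ratio -1.25, adjusted exact p = 0.0102). That call was lost with the pooled list, at 2.70% of passed and 3.74% of not-passed peaks (adjusted exact p = 0.319). GGTCACAC was at 5.95% of X and 4.57% of autosomal summits (adjusted exact p = 0.404), and in 0.244% of windows along the X chromosome. CAGGTAG, the site of Zelda, was at 0.616% of X and 0.397% of autosomal summits (adjusted exact p = 0.661). TTAAAGTG was at 0.205% of X and 0.199% of autosomal summits (adjusted exact p = 1).

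The promoters themselves also differed in the DRE core, whether or not a peak was present. In an analysis chosen after the data were seen, ATCGAT lay from 100 bp upstream to 50 bp downstream of 20.4% of 3275 X-linked coding starts, against 14.2% of 15978 autosomal ones. This was a log2 odds ratio of 0.64 (two-sided Fisher's exact test, adjusted p = 2.60e-17 over 16 tests), and 15.2% of all coding starts held the word. Alternative starts of a gene count separately, although their windows can overlap and they can share a summit. The 16 tests treat them as independent, so their p-values can be too small. Among starts with the core, 42.9% on the X chromosome and 45.2% on the autosomal arms had a summit within 100 bp (log2 odds ratio -0.14, 95% interval -0.39 to 0.12, adjusted exact p = 0.449). Among starts without it the shares were 5.41% on the X chromosome and 6.47% on the autosomal arms (log2 odds ratio -0.27, adjusted exact p = 0.0860, raw p = 0.0430). Over all starts, 13.1% on the X chromosome and 11.96% on the autosomal arms had a summit (adjusted exact p = 0.139). Starts with a summit held ATCGAT at 67.1% on the X chromosome and 53.6% on the autosomal arms, and starts without one at 13.4% on the X chromosome and 8.82% on the autosomal arms (adjusted exact p = 1.20e-06 and 2.55e-12). For the full TATCGATA, found at 9.13% of X starts and 5.68% of autosomal starts, the occupied share was lower on the X chromosome, at 48.5% of X against 57.4% of autosomal starts (log2 odds ratio -0.52, adjusted exact p = 0.0203). CANNTG was at 56.3% of X and 55.9% of autosomal starts (adjusted exact p = 0.714).

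**Figure D4:**
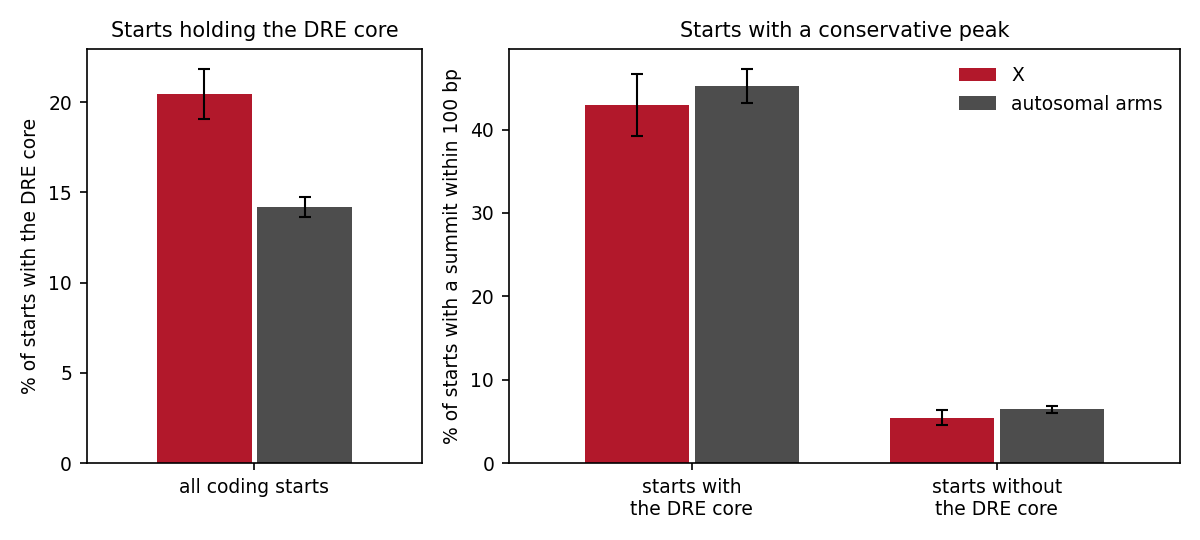
Left, share of protein-coding starts with ATCGAT from 100 bp upstream to 50 bp downstream; right, share of starts with a conservative summit within 100 bp, for starts with and without the core. Bars are percentages for the X chromosome (red) and the autosomal arms (grey) with 95% Wilson intervals; the X bar is higher on the left (20.4% and 14.2%) and slightly lower in both pairs on the right.

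X peaks that passed were stronger in the combined list, and those that did not pass weaker, than their autosomal counterparts. The median signal of conservative X peaks was 95.7, against 87.4 for autosomal ones, and 57.7% of X peaks lay above the autosomal median, against 1259 of the 2518 autosomal peaks (log2 odds ratio 0.45, two-sided Fisher's exact test, adjusted p = 0.00485 over the 10 shares). The main autosomal arms had medians from 81.0 to 91.2. The difference depended on how the list was made. Within the list of each replicate alone, the median was 56.5 for X and 55.01 for autosomal peaks in replicate 1, and 61.2 for X and 59.5 for autosomal peaks in replicate 2, and the upper-half share was not past the threshold (adjusted exact p = 0.393 and 0.390). Within 500 bp of a start the medians of the combined list were 98.1 for X and 92.8 for autosomal peaks, and the upper-half share did not pass (adjusted exact p = 0.0521). Near starts in the list of replicate 1 alone they were 58.0 for X and 57.7 for autosomal peaks. In that of replicate 2 the X median was the lower one, at 61.4 against 62.5.

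Ranked peaks that did not pass had a median signal of 15.7 on the X chromosome and 18.0 on the autosomal arms, where the 4 main arms ranged only from 17.8 to 18.2. In the ranked list of replicate 1 the medians were 9.55 on the X chromosome and 10.7 on the autosomal arms, a log2 ratio of -0.16. In that of replicate 2 they were 10.7 on the X chromosome and 12.1 on the autosomal arms, a log2 ratio of -0.17. The lower level of weak X peaks was thus present in both replicates. The median of all X peaks in each thresholded list was slightly above the autosomal one, though not near starts in replicate 2. The sex of the embryos is not in the labels, and its part in these levels was not tested.

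**Figure D5:**
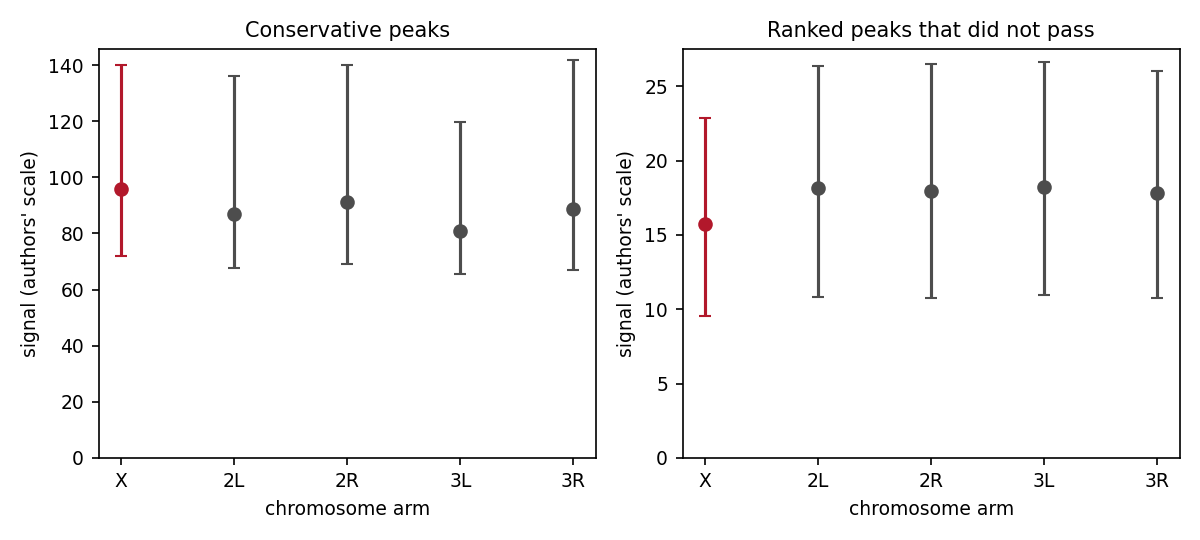
Median signal (points) with quartiles (bars), on the authors' scale, of conservative peaks (left) and of ranked peaks that did not pass (right) for the X chromosome (red) and the main autosomal arms (grey). The X median is 95.7 on the left and 15.7 on the right, where the other arms range from 17.8 to 18.2.

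X peaks were called in both replicates on their own more often than autosomal ones. Of the X peaks 254 (52.2%) overlapped a thresholded peak of both replicates, against 1123 autosomal peaks (44.6%), with a log2 odds ratio of 0.44 (two-sided Fisher's exact test, adjusted p = 0.00485 over the 10 shares). The main autosomal arms ranged from 40.8 to 47.3%. Another 95 X peaks overlapped a peak of replicate 1 alone, 35 of replicate 2 alone and 103 (21.1%) of neither. Peaks in both lists had a median signal of 137.7 and those in neither 64.3. Among the strongest 50% of peaks the shares in both lists were 83.0% of X and 80.8% of autosomal peaks, without passing (adjusted exact p = 0.566). In the list that pairs the replicates, the median log2 ratio of the 2 replicate columns, which are not named, was 0.12 for both X and autosomal peaks that passed.

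Away from starts there were 47 X peaks, with a median signal of 75.5 against 98.1 for the 440 near a start. The strongest after org-1 were nearest to CG15468 (256.6, at 4997 bp from its start), CG5273 (239.9, 631 bp upstream), ArgRS (236.6) and CG16989 (235.7, in a 3′ UTR). All were also called in each replicate on its own. The signals in replicates 1 and 2 were 143.1 and 101.7 at CG15468, 134.9 and 103.3 at CG5273, 130.9 and 109.4 at ArgRS, and 146.6 and 96.1 at CG16989. Reading their sequences showed that 3 of the 5 strongest distal peaks share CGTGACACG, those nearest to CG15468, CG5273 and CG16989, and the last windows printed above show the first and second of them. Since the word was chosen from these peaks, its counts carry no test. It was within 50 bp of 7 of the 487 X summits, 4 of them away from a start, and of 13 of the 2518 autosomal summits (0.516%). Of 78 copies on the X chromosome, 8 had a summit within 50 bp. The other X summits with the word were nearest to CG14441 (203.5), inc (120.6), nonC (102.1) and wgn (55.9). None of the 7 summits held the DRE core. The distal peaks and these genes were picked out with their values in view.

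The genes of dosage compensation itself were partly covered. Of the X-linked members, mof, which encodes the histone acetyltransferase of the male-specific lethal complex, had a peak of 116.9 at its start (58.3 in replicate 1 and 61.5 in replicate 2). The roX2 RNA gene had a summit within 500 bp with a signal of 86.8, assigned to the coding gene nod at -1710 bp from that gene's start. At roX1 no peak passed, and the strongest ranked peak had 26.4. On the autosomes msl-1 (230.0) and msl-3 (57.5) had a peak at a start, and msl-2, mle and Clamp had none. These counts, 2 of 3 and 2 of 5, stand beside 24.0% of all X-linked and 21.3% of all autosomal coding genes. The roX1 and roX2 genes are non-coding and lie outside these shares.

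Of 6 X-linked genes of the X signal and sex determination, 2 had a summit within 500 bp of a start, beside 24.0% of all X-linked coding genes. They were the splicing factor gene snf (90.9) and the switch gene Sxl (79.3). The X signal elements sisA, sc, upd1 and run had none, and their strongest ranked peaks ranged from 16.0 to 36.8. Sxl was at 42.7 in replicate 1 and 32.8 in replicate 2, and its peak was in the thresholded list of neither.

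Among 11 proneural and neural genes the count was 2, beside 24.0% of all X-linked coding genes. They were Nrg (333.0) and elav, which encodes a neuronal RNA-binding protein (81.3). The bHLH genes ac, sc, l(1)sc and ase, the achaete-scute relatives of ato, had no conservative peak, with strongest ranked signals of 20.4, 16.0, 16.6 and 23.5. The Notch receptor gene N had 67.5 in the ranked list and did not pass.

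Of 18 transcription factor genes on the list, 4 had a summit within 500 bp of a start, beside 24.0% of all X-linked coding genes. They were sd, the TEAD-family partner of Yorkie (75.9), the Bar homeobox gene B-H1 (72.5), the nuclear receptor gene Hr4 (71.7) and the T-box gene bi (69.0). The signals of these 4 lay in a narrow band below the X median of 95.7, and the 4 peaks were in neither replicate list. Of all 487 X peaks, 103 (21.1%) were in neither list, with a median signal of 64.3 and quartiles of 59.8 and 71.6. Nearest to a peak further away were org-1, oc, a homeobox gene with 93.7 at 18131 bp, and B-H2 (61.5). The peaks at org-1 (954.9) and oc were called in each replicate on its own.

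Of 13 signalling genes, 5 had a summit within 500 bp of a start, beside 24.0% of all X-linked coding genes. The Janus kinase gene hop had 263.8 (127.7 in replicate 1 and 127.1 in replicate 2), at a start shared with Tim8, and dome, the receptor of the same pathway, had 149.5 (69.7 and 57.0), shared with Ubqn. The kinase gene sgg had 106.9, the phosphatase gene csw 86.5 and the kinase gene Raf 81.7. The ligand genes upd1, upd2 and upd3 had none. The DRE core was within 50 bp of the summits at hop and Raf and not at dome, sgg and csw.

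Ribosomal protein genes had a summit within 500 bp of a start at 8 of 14, beside 24.0% of all X-linked coding genes (526 of 2196), with no test of the list. The strongest were RpL36 (145.5), RpS28b (137.3), RpS14b (130.7), RpS10b (123.3), RpS6 (94.2) and RpL37-1 (89.1), followed by RpS15Aa and RpS19a. The near-identical neighbours RpS14a and RpS14b are told apart here only by position, and RpS14a had 69.7 in the ranked list. That ribosomal protein genes have many peaks was known from the whole list, so the X count is not independent of it.

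The genes nearest to the most X peaks were inc, which encodes a Cullin 3 adaptor, with 4 peaks from 4.75 to 152.0, and Pfrx, IntS4, NFAT and AP-1-2beta with 3 each. Some of these overlap each other, as at inc, where the peak of 4.75 overlaps that of 152.0. For Pfrx the 3 summits had 139.9, 97.7 and 82.2, and the first and second held the DRE core. At NFAT the signals were 94.8, 70.3 and 62.6.

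At the threshold, a global IDR of 0.01, peaks inside and outside had similar signals. The last X peaks inside were nearest to Fas2, a neural cell adhesion gene (62.5), Hers (79.1) and Fim, which encodes fimbrin (52.5). The first outside were nearest to CG8117 (65.6), Amun (67.3) and mRpL49 (55.6). By signal, the strongest X peaks that did not pass were at mahe (103.6), CanA-14F (101.0) and dlg1 (99.6), above the median of the peaks that passed. A further 5 ranked X peaks met the rate and were absent from the conservative list, with 214.3 and 209.3 in CG44774, 196.5 nearest to ATbp, 105.7 nearest to CG3038 and 91.4 nearest to CG17636.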

How the data were processed

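Per the text files deposited with the samples, the authors made each replicate's peak lists from the alignment of that replicate and the combined lists from both alignments, on dm6. Not given in the sources used here are the aligner, the peak caller and what a further file common to all lists holds. The deposited signal of each peak has no stated scale. In the ranked lists the authors deposited a -log10 global IDR for each peak. Tested on the files, every conservative peak was in the ranked list with an IDR of at most 0.01. Another 124 ranked peaks past that value, 5 of them on the X chromosome, were absent and were left out of the peaks that did not pass.

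Starts, genes and exons came from Ensembl release 115 and sequence from RefSeq dm6. Arm lengths matched. A summit was assigned to the nearest coding start. Where annotations overlapped, a summit in a 5′ UTR was counted as such, then coding exons took priority over 3′ UTRs, non-coding exons over introns. Motifs were counted on both strands within 50 bp of the summit. Signals of a replicate were taken from the peak of its own ranked list that overlaps the summit. X and autosomal peaks were compared with two-sided Fisher's exact tests, adjusted by Benjamini-Hochberg over 10 shares, 12 motifs, 5 measures of passed against not-passed peaks or 16 tests of starts. The pass share stood alone. The software was Python 3.11.15, with scipy 1.17.1, numpy 2.4.6, pandas 2.3.3 and matplotlib 3.10.9, tested on simulated sequences.

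The X peaks, gene lists and tests were chosen with earlier results of these data known. Genes were named by rule: those nearest to the 20 strongest X peaks, the 5 with the most X peaks, those at the threshold, and up to 6 per list by signal. The genes of distal peaks, of the word CGTGACACG and of absent peaks, list members without a peak, and genes sharing a start were added once their values had been seen. Alternatives were each replicate alone, the pooled list, the strongest 50% of peaks, merged peaks, chromosome 4 left out, and other distances, windows and gene assignments. Motifs in the strongest 25% and in peaks of both replicate lists, and the tests of starts, were added after the data were seen.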

Additional observations from a re-analysis of the deposited data

How the results depend on the processing

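Of 247 recomputed values, 206 stayed the same, 20 lost the threshold, 3 counts moved by over 1.5 times and 18 turned direction. A share stayed the same if it kept its direction and side of the threshold. Counts of classes or motifs did so within 1.5 times, and replicate log ratios within the spread of the main autosomal arms. ATCGAT kept its call under all 11 alternatives (log2 odds ratio 0.78 to 1.12). With 1 replicate alone, the log2 odds ratio of passing ranged from -0.0091 to 0.14, of lying near a start from 0.19 to 0.87 and of a signal above the autosomal median from 0.178 to 0.179. With the strongest 50% of peaks these were 0.063, -0.089 and -0.031, presence in both replicate lists was 0.22 and the 3′ UTR share was -0.077. Passing was -0.11 in the pooled list and 0.10 among peaks near starts, the near-start share was 0.57 at 1000 bp, the signal share was 0.32 near starts, and the gene share was 0.15 by nearest gene. The number of motifs past the threshold, whose words can overlap, was 1 rather than 3 with the strongest 50%, the strongest 25% and the peaks in both lists. Motifs that did not pass in the main list turned direction as follows. With 1 replicate alone, TTAAAGTG ranged from -0.51 to 2.20, CAGGTAG from -0.40 to -0.39, CACGTG from -0.26 to 0.023 and GAGAGAG in passed against not-passed X peaks from -1.69 to 0.072. GAGAGAG was 0.046 and CACACACA 0.11 in the pooled list. TTAAAGTG was -1.17 near starts, CAGGTAG -0.22 within 25 bp, CACGTG 0.33 and CACACACA 0.051 within 100 bp, and CAACTG 0.13 in peaks of both lists. The strongest 50% leaves 277 X peaks, and beyond such smaller numbers the cause of these changes was not tested. With the depth unknown, how many weak X sites each replicate missed cannot be stated. No paired analysis was possible because there is 1 group.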
